A study of Drosophila melanogaster with 3 samples.

Results

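Peaks of the CG15011 fusion protein that lie inside introns, far from any transcription start site (TSS), made up 770 of the 3237 peaks of the optimal set, or 23.8%. A peak was counted when its summit, the base of highest signal, lay inside an annotated gene, in no exon of any gene, and more than 2000 bp from the nearest TSS of any gene in Ensembl release 115, with transposable elements left out. These 770 peaks are called far intronic here. Chromatin immunoprecipitation followed by sequencing (ChIP-seq) was applied to whole Drosophila melanogaster embryos of both sexes, aged 0 to 24 h, from a transgenic line that stably expresses CG15011 with green fluorescent protein fused to its C-terminal end. The 3 biological replicates are 1 group with no second genotype or treatment, so replicates were set against each other, and far intronic peaks against the other peaks and against far intronic sequence as a whole. The whole embryo mixes every tissue and stage of that window, so a peak present in few cells and a weak peak present in many cannot be told apart.

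Each replicate has a list of 30000 peaks, as does the pool of the 3 replicates, and the optimal set holds the 3237 strongest peaks of the pooled list. Per the deposited notes it was set by an irreproducible discovery rate threshold, a measure of how well ranks repeat between replicates. Signal is the authors' value per peak, and its scale differs between lists, so values were compared within a list. The lists hold no read counts, so the depth is unknown.

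Introns of the fly genome hold many enhancers, the stretches of DNA that bind transcription factors and raise the output of a promoter at a distance. Long introns are common in genes for developmental regulators and in neuronal genes, and the introns nearest the 5′ end of a gene tend to be the longest. A ChIP-seq peak in an intron records contact of the tagged protein, or of a complex that holds it, with that DNA. It does not show that the host gene responds. The peak lists carry no mark of enhancer activity, so whether any of these sites is an enhancer was not tested.

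Many of the strongest far intronic peaks had summits in DNA rich in A and T. Shown are 30 bases around the summit in 5 of the 9 strongest, on the plus strand of dm6 (sequence from RefSeq, assembly Release 6), with runs of 6 or more A or T bases in capitals. The windows are chrX:3742204-3742233 in Tlk, chr3R:14283866-14283895 in trx, chr3L:10682915-10682944 in simj, chr3R:9057530-9057559 in Kdm2 and chr3L:8458313-8458342 in Gug. Their GC content was 26.7% or less in all 5. Not every strong peak was as poor in G and C. The summits of Raf and Smr had 30% in 30 bases. In windows 100 bp to each side of the summit, the 15 strongest peaks ran from 20.4% in Kdm2 to 49.3% at the weaker of 2 peaks of simj, with 44.8% at the strongest peak, in sbb.
Tlk: ATATATAcatcttagTTTTAATcaagatag
trx: cataacttttcctactccacTTATTAAATA
simj: aatagTTAAAAAATAgTTTTTAAATAcata
Kdm2: tttagtcATTTTTTTTAcTTATAATAggat
Gug: tttatgtgaaaaagaaacTTTATATAgaaa

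A second set of sequences is shown because its 8 central letters stood out among far intronic peaks. Of all 8-base words with a GC content of at least 50%, CACAGTGG or its reverse complement had the largest excess in windows 100 bp to each side of the summit over the weaker far intronic peaks of the pooled list. The word was chosen from these data, so its counts are a description. The match is in capitals, and each sequence reads along the strand that carries it.
Wwox: gcagctgtaagCACAGTGGagtagagagct
rdx: ttaagtgagggCACAGTGGaacaaaatggt
tara: gaacaaatgtaCACAGTGGaaaattaaatt
CHES-1-like: actgtttggcgCACAGTGGgcactcgcttg
Sema1a: tattttgggtgCACAGTGGttcaagcgcaa
cic: cagccgcacaaCACAGTGGcaagcttatgc

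These windows are chr2L:8002020-8002049 on the minus strand in Wwox, chr3R:14012633-14012662 on the plus strand in rdx, chr3R:16247875-16247904 on the minus strand in tara, chrX:7700454-7700483 on the minus strand in CHES-1-like, chr2L:8575070-8575099 on the plus strand in Sema1a and chr3R:20285913-20285942 on the minus strand in cic. The matches did not sit on the summits. Their centres lay 84 bp from the summit in Wwox, 67 bp in tara and in CHES-1-like, and 20 bp in cic, each toward higher coordinates. In rdx and Sema1a they lay 83 and 52 bp from the summit toward lower coordinates. The side went with the strand in every window shown, with minus-strand matches toward higher coordinates and plus-strand matches toward lower ones. Read along the strand that carries it, each printed match thus lay before the summit. Whether this holds for the other matches was not tested. GC content of the windows ran from 26.7% in tara to 60.0% in CHES-1-like.

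The 15 strongest far intronic peaks are described first. The strongest of all, with a pooled signal of 1764.3, lay at 2R:18336902-18337375 in the first intron of sbb (scribbler, also brakeless), which encodes a nuclear corepressor, 20114 bp from the nearest TSS. It ranked 11 in replicate 1, 24 in replicate 2 and 15 in replicate 3, with signals of 537.9, 769.0 and 461.9 in that order. All 3 replicates thus placed it among their strongest peaks. The second, in Tlk (Tousled-like kinase, a kinase of chromatin assembly), had a pooled signal of 1513.5 and ranks of 29, 32 and 39, and lay 2321 bp from a TSS of Tlk in intron 4.

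The third strongest, in the first intron of Lrch (a leucine-rich repeat protein), had a pooled signal of 1307.0. Its ranks were 33 and 38 in replicates 1 and 2 and 164 in replicate 3, so the replicates placed it less evenly than the peaks of sbb and Tlk. The fourth, with 1197.9, lay inside 3 overlapping genes, CG46321, CG12912 and Hr3, the last a nuclear receptor of the ecdysone response. It ranked 64, 75 and 46. Which of the 3 genes it belongs to cannot be told from its position.

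Among the next, the peak in the first intron of trx (trithorax, a histone H3 lysine methyltransferase) had a pooled signal of 1100.5 and ranks of 89, 71 and 81. The peak in Kdm2, a histone demethylase gene, had 1040.6 and ranks of 83, 119 and 76. The peak in Gug (Grunge, the fly Atrophin, a corepressor) had 1009.5 and ranks of 114, 102 and 111. Every replicate placed these 3 peaks among its strongest 119.

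The remaining peaks of the 15 strongest ran from 1134.9 in CG12769 to 805.2 in simj. They lay in simj (simjang, a subunit of the Mi-2/NuRD nucleosome remodelling complex), tara (taranis, a regulator of the cell cycle), CG32486, Raf (a kinase of the Ras pathway), Smr (a corepressor of nuclear receptors and Notch targets) and sim (single-minded, the transcription factor of the ventral midline). The sim peak was the least even of these, with ranks of 142 and 148 in replicates 1 and 2 and 291 in replicate 3. The simj gene holds 2 of the 15, with summits about 200 bp apart, and both fell in the same peak of replicate 2, at rank 104.

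Of the peaks nearest the distance limit, all but that of fru were weaker than the far intronic median of 224.0. Just inside it were peaks of fru (2007 bp, pooled signal 321.2), CG46310 (2008 bp, 188.7) and NFAT (2009 bp, 174.1). Just outside were peaks of toc (1993 bp, 162.7), fl(2)d (1993 bp, 179.6) and Abd-B (1999 bp, 188.7).

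Far intronic peaks were weaker than the other optimal peaks. Their median pooled signal was 224.0 (quartiles 184.5 and 298.8), against 259.7 for the other 2467 optimal peaks (quartiles 195.1 and 407.7). By place, the median was 243.6 for the 598 intronic peaks 500 to 2000 bp from a TSS, 221.3 for the 246 intergenic peaks over 2000 bp from a TSS, and 284.0 for the 1384 peaks within 500 bp of a TSS. Far intronic peaks thus sat close to far intergenic ones and below those at promoters. They made up 8 of the strongest 100 optimal peaks and 59 of the strongest 500, though 23.8% of the set.

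The replicates gave the same order. In replicate 1 the median rank was 2083 for far intronic peaks and 1509 for the other optimal peaks, a difference of 574 ranks toward the weaker end. The difference was 499 ranks in replicate 2 (1952 and 1453) and 414 ranks in replicate 3 (1910 and 1496). Ranks are over the far intronic peaks that had a peak in the list of a replicate, 764, 768 and 767 of the 770. The mean was 495.7 ± 80.1 (SD, n = 3), in the same direction in 3 of 3 replicates, and the two-sided exact sign-flip permutation test gave p = 0.25, the smallest value that 3 replicates allow.

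**Figure D1:**
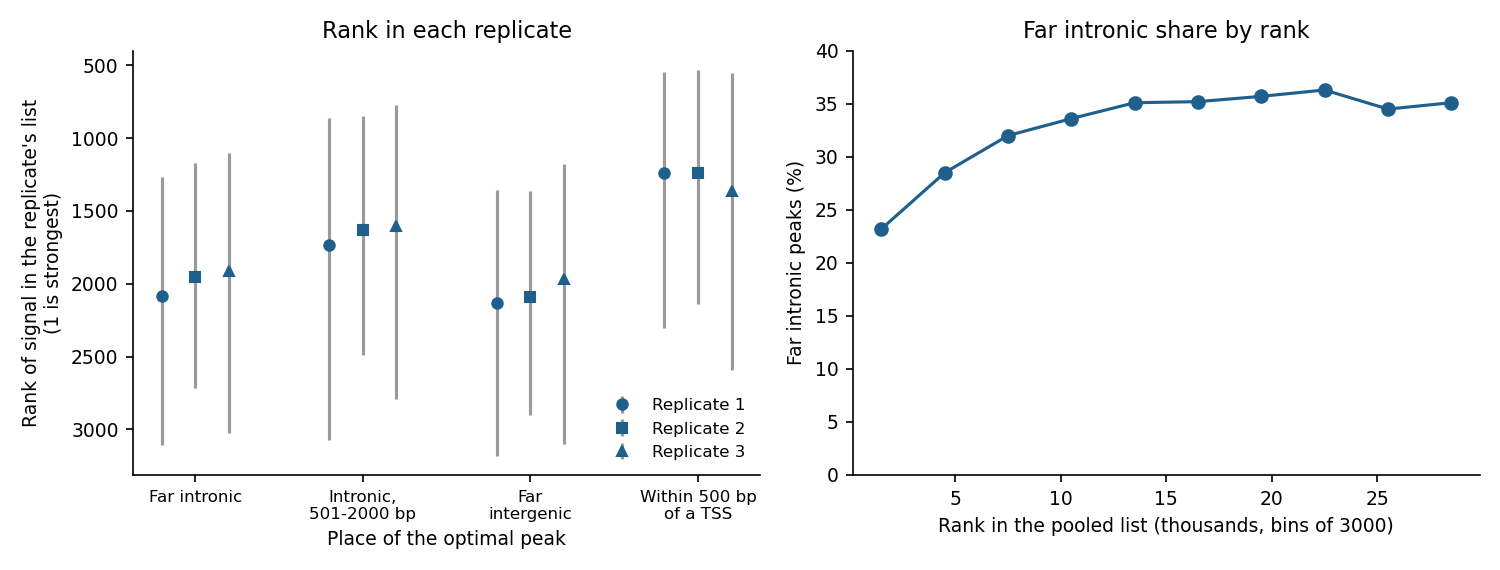
Left: median rank (points) and quartiles (bars) of optimal peaks in the list of each replicate, by place, with strong peaks at the top; far intronic peaks have medians of 2083, 1952 and 1910, against 1237, 1237 and 1360 within 500 bp of a TSS. Right: share of far intronic peaks in bins of 3000 peaks along the pooled list, which is 23.2% in the strongest bin and 35.1% in the weakest.

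The far intronic share grew down the pooled list. Among its 30000 peaks, 9874 were far intronic (32.9%), and the share was 23.2% in the strongest 3000, 28.5% in the next 3000 and between 32.0% and 36.3% in every later bin. The far intronic share of the gap-free genome is 31.0% (41.4 of 133.6 Mb), so the 2 strongest bins lay below the genome and the later bins above it. Of the pooled far intronic peaks 7.80% were in the optimal set, against 10.8% of all pooled peaks. The share was 14.2% for intronic peaks 500 to 2000 bp from a TSS, 21.6% within 500 bp of a TSS and 4.85% for far intergenic peaks. Without the 5 genes with the most far intronic sequence the genome share is 28.9%.

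Support from the replicates was lower for far intronic peaks as a whole and alike at matched signal. A peak counted as supported when its summit lay inside one of the strongest 3237 peaks of a replicate. That held in all 3 replicates for 422 far intronic peaks (54.8%), against 60.4% of all optimal peaks. The optimal set was drawn from these same replicates, so support is partly built in, here and for the single genes below. In single replicates the share of far intronic peaks supported was 76.0%, 84.8% and 78.6% (mean 79.8 ± 4.54, SD, n = 3). A further 236 were supported in 2 replicates, 105 in 1 and 7 in none, and those 7 all had pooled signals of 170.4 or less.

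With far intronic peaks cut into 3 equal groups by pooled signal, support in all 3 replicates was 96.5% in the strongest group, 59.4% in the middle group and 8.56% in the weakest. Other optimal peaks of the same pooled ranks had 93.2%, 55.6% and 9.09%. The lower support of far intronic peaks as a whole thus went with their lower signal, and a far intronic peak of a given pooled rank was supported about as often as another optimal peak. What part the signal has in the difference was not tested beyond these bands. In the weakest group, support in a single replicate ran from 46.7% to 60.3%.

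Far intronic peaks lay nearer to TSSs than far intronic sequence does. The median distance to the nearest TSS was 5001.5 bp (quartiles 3159 and 8610.5), against 7999 bp for all far intronic bases and 6247.5 bp for the 9104 weaker far intronic peaks of the pooled list. The replicates' own strongest 3237 peaks gave medians of 4801, 4953 and 4963 bp. Per Mb of far intronic sequence there were 30.4 peaks at 2 to 3 kb from a TSS, 28.5 at 3 to 5 kb, 20.4 at 5 to 10 kb, 14.5 at 10 to 20 kb and 4.17 farther out. The decline was seen in every replicate, and the spread was small beside it, with 29.8 ± 0.900 per Mb in the nearest bin and 3.71 ± 0.465 in the farthest (mean ± SD, n = 3).

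Part of the low density farthest out went with 5 very long genes that held almost no peak. Myo81F, Pzl, lovit, CG17684 and DIP-lambda hold 3.81 Mb, or 9.21% of far intronic sequence, and had 7 of the 9874 pooled far intronic peaks and 0 of the optimal ones. Whether reads map there was not tested. Without them the farthest bin had 6.93 peaks per Mb and the nearest 30.5. A comparison within the pooled list, which does not use base counts, went the same way: 9.60% of pooled far intronic peaks 2 to 3 kb from a TSS were in the optimal set, and 4.29% of those over 20 kb away.

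The 3 most distant far intronic peaks lay in genes for transcription regulators. A peak of hth (homothorax, a homeodomain protein) lay 47279 bp from the nearest TSS, with a pooled signal of 169.6 and ranks of 3334, 3768 and 1971. A peak of mamo (a zinc finger protein of the germ line) lay 42294 bp away with a pooled signal of 531.2, well above the median, and ranks of 408, 382 and 729. A peak of Snoo (the fly Ski/Sno corepressor) lay 41814 bp away with 364.1 and even ranks of 895, 899 and 890. The mamo and Snoo peaks were thus strong in every replicate and the hth peak was weak.

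Introns of middling length held the most peaks for their size. The intron was taken as the gap between the exons of all transcripts of the host gene, so that its length is the stretch never exonic. Its median length was 11863.5 bp (quartiles 6681 and 21614), against 15117 bp for the intron of a far intronic base and 13251 bp for the weaker pooled peaks. The replicates gave 11350, 11692 and 11898 bp. Per Mb there were 15.5 peaks in introns up to 5 kb, 29.8 at 5 to 10 kb, 24.0 at 10 to 20 kb, 15.3 at 20 to 40 kb, 15 at 40 to 80 kb and 3.26 in longer ones. The last value was 13.7 per Mb without the 5 long genes above, so the drop past 80 kb rests mostly on them. The longest intron with a far intronic optimal peak was a 108407 bp intron of luna, a zinc finger gene of the Krüppel-like family, whose 1 peak had a pooled signal of 202.3 and ranks of 1999, 2328 and 4220.

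First introns were the densest. Per Mb the first intron from the 5′ end held 31.7 peaks, the second 23.5, the third 15.6 and later ones 10.7. First introns held 282 far intronic peaks, 36.6% of them, in 21.5% of the sequence, and the replicates' densities were 30.4 ± 0.551 per Mb in first introns and 9.56 ± 0.220 in the fourth and later ones (SD, n = 3). First introns also lie nearest to TSSs. Within 5000 bp of a TSS the density was 38.1 per Mb in first introns and 25.5 in later ones, and beyond 5000 bp it was 26.6 and 10.9, so the excess was there at both distances.

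**Figure D2:**
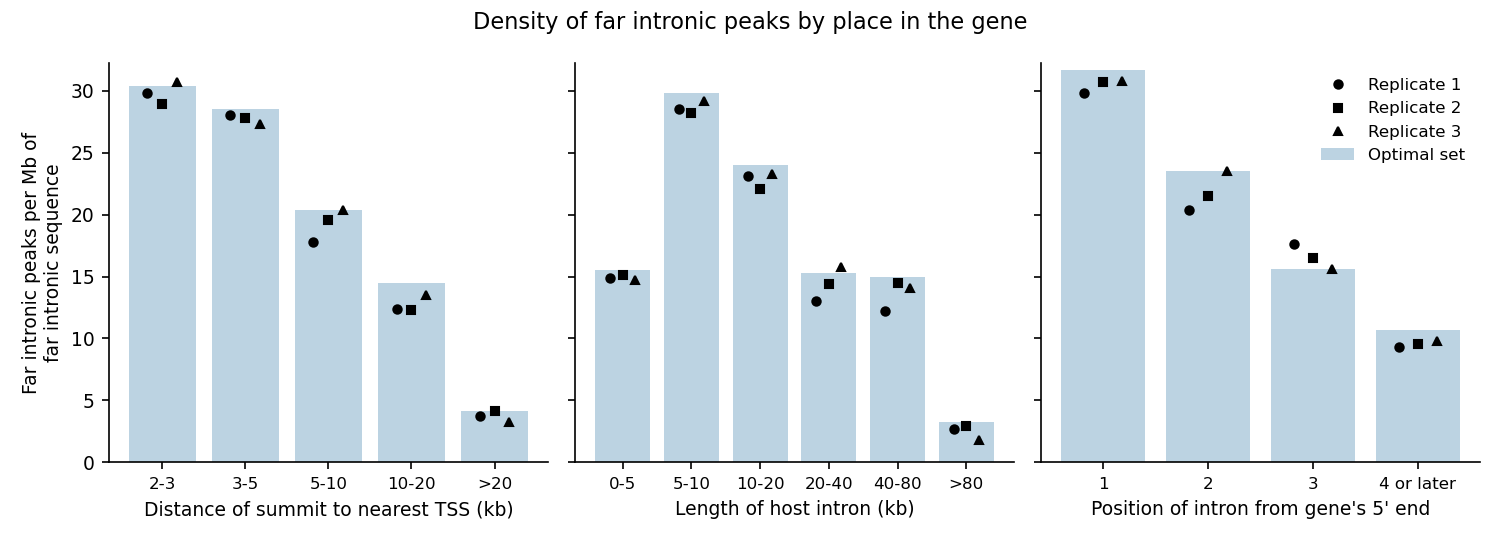
Far intronic peaks per Mb of far intronic sequence, by distance to the nearest TSS, length of the host intron and position of the intron from the 5′ end; bars are the optimal set and points the strongest 3237 peaks of each replicate. Density is 30.4 per Mb at 2 to 3 kb from a TSS and 4.17 beyond 20 kb, peaks at 29.8 in introns of 5 to 10 kb, and is 31.7 in first introns and 10.7 in the fourth and later.

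Sequence next to exons held few peaks. Within 500 bp of an exon of the host gene there were 7.91 peaks per Mb, against 21.3 at 500 to 1000 bp, 28.1 at 1 to 2 kb and 27.1 at 2 to 5 kb. The replicates gave 7.50 ± 0.239 and 26.2 ± 0.346 within 500 bp and at 1 to 2 kb (SD, n = 3). An intron under 1000 bp lies wholly within 500 bp of an exon, and introns up to 5 kb held 15.5 peaks per Mb. The part of intron length and intron number in the low density next to exons was not tested. Along the intron from its 5′ to its 3′ end the 5 equal parts had 17.9, 20.6, 19.4, 21.2 and 13.6 peaks per Mb, so density was lowest in the last part. By chromosome arm it was 20.4 per Mb on 2L, 18.5 on 2R, 18.3 on 3L, 17.0 on 3R and 20.7 on X. The small chromosome 4, with 0.429 Mb of far intronic sequence, held 0 far intronic peaks in the optimal set and in the strongest 3237 of every replicate.

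The peaks lay in 448 host genes, 440 of them protein-coding. Another 8 hosts were genes for long non-coding RNAs, which held 9 peaks, the strongest with a signal of 518.2 in lncRNA:CR44320. For 43 peaks the summit lay inside 2 or more overlapping genes, and the protein-coding and then the shorter one was taken as host. Antp, with 3 peaks inside it, was thus host of 0, and they were counted for CG46458. The nearest TSS belonged to the host gene for 520 peaks (67.5%), so for the rest a start of another gene was nearer than any start of the host. Where a peak acts, if it acts, cannot be read from its host.

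Most peaks shared their gene with another. Of the 448 hosts, 277 had 1 far intronic peak, 171 had 2 or more and 18 had 5 or more, and the 171 held 493 peaks (64.0%). The replicates' strongest 3237 peaks gave 159, 167 and 163 hosts with 2 or more (163 ± 4, SD, n = 3). The 770 peaks lay in 551 introns, of which 140 held 2 or more. Some close neighbours may be parts of 1 enriched region: no 2 summits in any list were under 199 bp apart, and 23 neighbouring pairs lay within 250 bp. With overlapping peaks joined there were 743 regions, 165 hosts with 2 or more and 12 with 5 or more.

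As host, Eip75B held the most, with 9. The gene lncRNA:CR44357 had 10 inside it but was host of 2, since protein-coding genes were taken first where genes overlap. Eip75B encodes an ecdysone-induced nuclear receptor and spans 3L:17950953-18064696 with 7 TSSs. Its peaks lay in 3 introns and spanned 52286 bp, with pooled signals of 158.4 to 355.2. Only the strongest lay above the upper quartile of far intronic peaks, 298.8, and 4 of the 9 were supported in all 3 replicates. The replicates' strongest 3237 peaks placed 7, 7 and 7 far intronic peaks in it. With overlapping peaks joined it had 7 regions.

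The sbb gene held 8, all in its 49364 bp first intron, the most counted for any host's intron. Their pooled signals were 1764.3, 487.7, 427.0, 424.0, 407.4, 276.5, 224.2 and 184.9. The replicates placed 6, 8 and 11 far intronic peaks in the gene. The 5 strongest of the 8 were supported in all 3 replicates, and 4 of them lay between 18333277 and 18338587 on 2R, a cluster around the strongest far intronic peak of the set.

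Hr4 (hormone receptor 4, another nuclear receptor of the ecdysone response) held 7 peaks in 4 introns, with pooled signals of 162.3 to 664.3. Its strongest ranked 301, 343 and 213 in the replicates. The jing gene, which encodes a zinc finger protein of tracheal and midline development, also held 7, with pooled signals of 160.2 to 298.4, spread over 93508 bp of a single intron. In jing 3 of the 7 were supported in all 3 replicates, and in Hr4 5 of the 7.

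The simj gene held 6 peaks within 5360 bp of its first intron, which overlap to 4 regions, and all 6 were supported in every replicate. Raf held 6 within 6365 bp (160.0 to 895.3), its strongest with ranks of 184, 127 and 142. PRAS40, an inhibitor of the TOR kinase complex, held 6 within 4656 bp of its first intron (158.4 to 582.6), or 4 regions. In these 3 genes the peaks thus sat in a short stretch, and in jing and Eip75B they were spread out. The genes themselves differ in length. PRAS40 spans 16126 bp, simj 25996 bp and Raf 48405 bp, against 113744 bp for Eip75B and 119787 bp for jing.

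In all 7 genes held 6 peaks, and the 6 of them with the strongest peaks were taken into the 10 with the most, which left out CHES-1-like. Those not yet described were shn (schnurri, a zinc finger protein of Dpp signalling), apt (apontic, a transcription factor) and CG1677, with 6 peaks each. In shn all 6 were supported in every replicate, as 3 close pairs of which 2 overlap, and its strongest had a pooled signal of 553.8. In apt the 6 spanned 22871 bp and reached 483.8, and in CG1677 they spanned 41300 bp and reached 417.6. CG1677 lies inside lncRNA:CR44357, so its 6 peaks lie in both genes. Of the 10 genes chosen in this way, 4 also had an optimal peak within 500 bp of one of their TSSs: sbb with a signal of 671.1, Eip75B with 621.1, shn with 409.8 and Raf with 158.7.

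**Figure D3:**
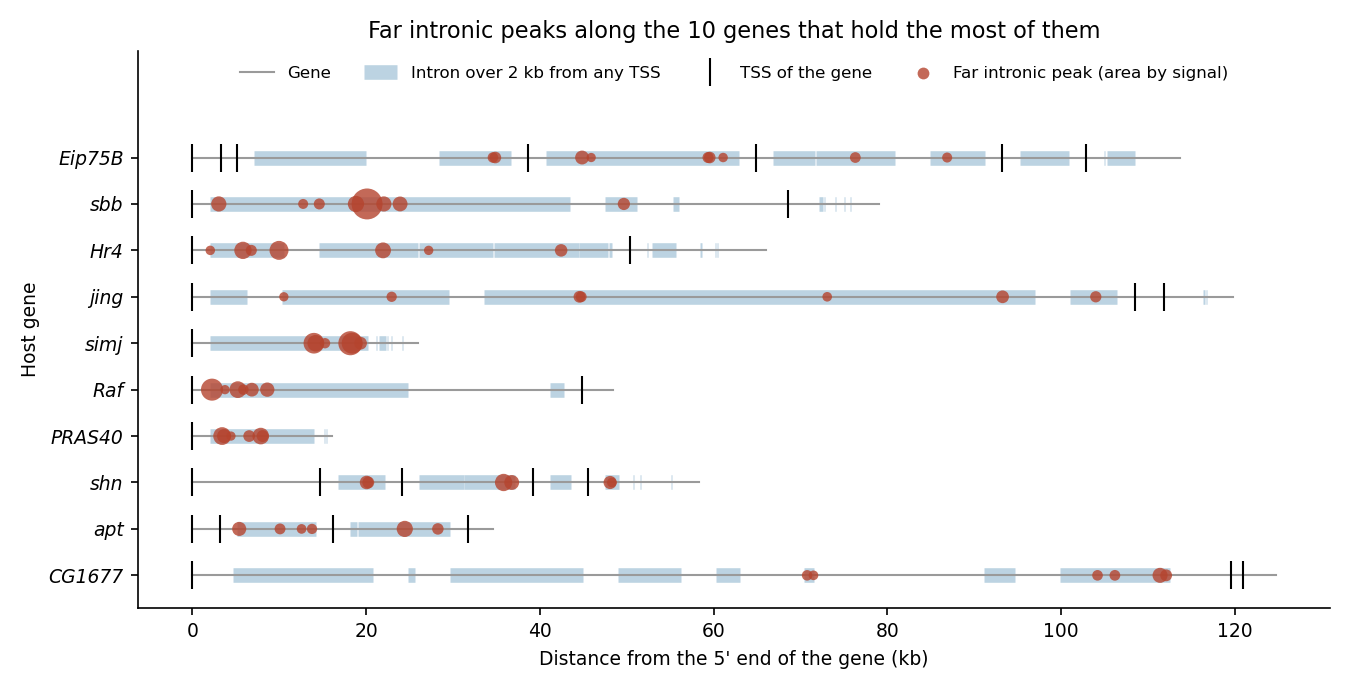
Far intronic peaks (red, area by pooled signal) along the 10 host genes with the most, in kb from the 5′ end of each gene. Grey lines are genes, blue bars intron over 2000 bp from any TSS, and black ticks TSSs of the gene. Peaks of simj, Raf and PRAS40 lie within 5360, 6365 and 4656 bp, and those of Eip75B and jing are spread over 52286 and 93508 bp.

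Longer genes hosted more often and held fewer peaks for their length. Of 2375 protein-coding genes with at least 1000 bp of far intronic sequence, 432 were hosts (18.2%). The share was 7.45% of genes with 1 to 5 kb of such sequence, 16.2% at 5 to 10 kb, 23.5% at 10 to 20 kb, 32.1% at 20 to 50 kb and 40% above. Peaks per 100 kb went the other way, with 3.47, 3.03, 2.51, 2.07 and 1.07 in the same classes. The last class includes the 5 very long genes named above, with 3.81 Mb of far intronic sequence and 0 optimal far intronic peaks, and was not recomputed without them. Some of the longest genes had no far intronic optimal peak although the pooled list had peaks in them: bru3 had 40 pooled peaks in 244 kb, Ten-a 41 in 212 kb and Rbp6 38 in 155 kb.

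Hosts also had promoter peaks more often. An optimal peak within 500 bp of a TSS was found in 127 of the 432 hosts (29.4%) and in 304 of the other 1943 genes (15.6%), against 18.1% of all 2375. Hosts had more TSSs (median 2, against 1) and more far intronic sequence (median 18.1 kb for all hosts, against 5.78 kb for the other genes), and the part of these in the difference was not tested.

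The density of far intronic peaks ran from 3.03 per Mb in genes of ion channels and synapses to 69.6 per Mb in genes of chromatin proteins. Densities are per Mb of far intronic sequence in the genes of a list, beside 18.2 per Mb over all protein-coding genes (17.3 ± 0.451 in the replicates, SD, n = 3). Hosting is given as a share of list members with at least 1000 bp of far intronic sequence, beside the 18.2% of all such genes. A gene with a longer intron has more room for a peak, so density and share need not go together. Density also fell with far intronic sequence per gene, as given above. Genes with 5 to 10 kb had 3.03 peaks per 100 kb, and those above 50 kb had 1.07. The median of such sequence per gene was 7.63 kb in the chromatin list, 7.69 kb in the muscle list and 8.72 kb in the signalling list. The part of gene size in the densities of the lists was not tested.

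For transcription factors and cofactors, 48 of 132 genes were hosts (36.4%) with 37.0 peaks per Mb (replicates 34.9 ± 1.46). The strongest peaks were in sim, in mam (mastermind, the Notch coactivator, pooled signal 742.2, ranks 273, 204 and 204) and in cic (capicua, a repressor downstream of receptor tyrosine kinases, 564.3, ranks 481, 467 and 262). For nuclear receptor and ecdysone response genes, 6 of 21 were hosts (28.6%) with 44.9 per Mb (38.3 ± 4.48), led by Hr4, ftz-f1 (364.0, ranks 925, 969 and 791) and Eip75B (355.2). Few genes carry that list: Eip75B with 9 and Hr4 with 7 hold most of its 25 peaks. The 2 peaks inside Hr3, which include the fourth strongest of all, were counted for the shorter CG46321 under the rule for overlapping genes. They are thus not among the strongest peaks of the list given here.

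Chromatin protein genes had the highest density, 69.6 per Mb (70.7 ± 3.98), with 8 hosts of 26 (30.8%) and 20 peaks, of which 8 were in sbb. After sbb and trx the strongest peak within the list was in JIL-1, a histone H3 kinase gene (571.4, ranks 368, 421 and 327). The list does not hold Tlk, Kdm2, Gug, simj or Smr, so their stronger peaks are not in its count. Genes for signalling receptors, ligands and transducers had 30 hosts of 72 (41.7%) and 40.2 per Mb (36.5 ± 4.07 in the replicates). Their strongest peaks were in aos (argos, a secreted inhibitor of the EGF receptor, 559.1, ranks 392, 391 and 349), N (Notch, 549.5, ranks 399, 498 and 360) and fz (frizzled, a Wnt receptor, 484.1, ranks 528, 604 and 496). Replicates agreed closely on each of these 3.

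Neuronal guidance and adhesion genes had 20 hosts of 74 (27.0%) and a low density, 10.5 per Mb (9.44 ± 0.814), with a median of 30.5 kb of far intronic sequence per gene. Of all protein-coding genes with 20 to 50 kb of such sequence, 32.1% were hosts. The strongest peaks of the neuronal list were in fra (frazzled, the netrin receptor, 531.4), dlp (a glypican, 464.1) and caps (a leucine-rich repeat adhesion protein, 358.1). RNA-binding and splicing regulator genes had the highest share of hosts of the 8 lists with far introns, 12 of 27 (44.4%), and a density of 13 per Mb. The replicates gave 10 ± 2.20 per Mb (SD, n = 3), with 7.53 in replicate 1, 11.6 in replicate 2 and 11 in replicate 3. Their strongest peaks were in Rbfox1 (480.9), shep (437.6) and pum (pumilio, a translational repressor, 338.1). Ion channel and synaptic genes had 3 hosts of 68 (4.41%) and 3.03 per Mb (3.37 ± 0.294 in the replicates): dnc (a cyclic AMP phosphodiesterase, 315.7), rg (rugose, an anchor of protein kinase A, 290.9) and Ca-beta (a calcium channel subunit, 164.4). The Ca-beta peak ranked 3770 and 4842 in replicates 1 and 2 and 2337 in replicate 3, so only replicate 3 had it among its strongest 3237.

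Muscle and cytoskeleton genes had 13 hosts of 56 (23.2%) and 27.6 per Mb (24.7 ± 3.82 in the replicates), led by Dys (dystrophin, 502.3), mew (an integrin alpha subunit, 456.5) and Zasp52 (a Z-disc protein, 292.7). Of the 92 cytosolic ribosomal protein genes, 0 had as much as 1000 bp of far intronic sequence, so they could not be hosts.

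**Figure D4:**
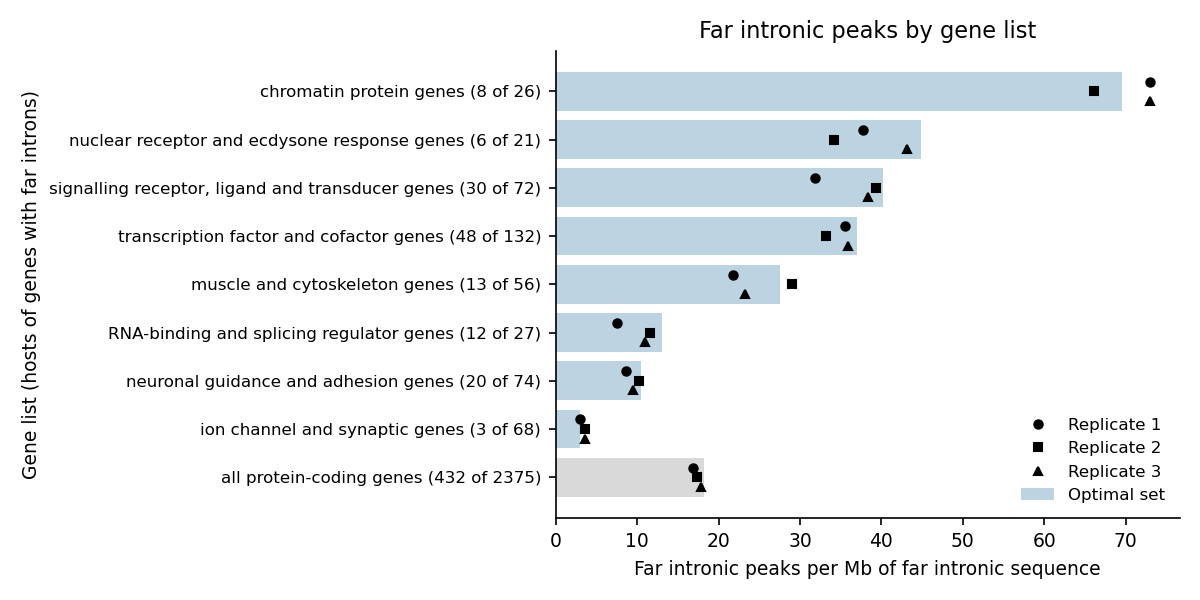
Far intronic peaks per Mb of far intronic sequence in 8 gene lists and all protein-coding genes (grey); bars are the optimal set, points the strongest 3237 peaks of each replicate, and the numbers in brackets the hosts among genes with at least 1000 bp of such sequence. Chromatin protein genes stand at 69.6 per Mb and ion channel and synaptic genes at 3.03, against 18.2 for all protein-coding genes.

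The sequence at far intronic summits was poorer in G and C than its surroundings. Windows 100 bp to each side of the summit had a mean GC content of 35.5% (SD over peaks 6.56, n = 770), against 41.5% in windows centred 500 bp to each side, 39.3% at the weaker pooled far intronic peaks and 40.2% over far intronic sequence. In the replicates the difference of summit minus flanks was -4.88, -5.81 and -5.59 percentage points (mean -5.42 ± 0.484, SD, n = 3; two-sided exact sign-flip permutation test p = 0.25, the smallest value possible). Intronic peaks 500 to 2000 bp from a TSS had 34.8%, and peaks within 500 bp of a TSS 34.7%, so the low GC content was not particular to far intronic summits. The dip was narrow, and GC content at 250 bp to either side was above that of far intronic sequence.

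**Figure D5:**
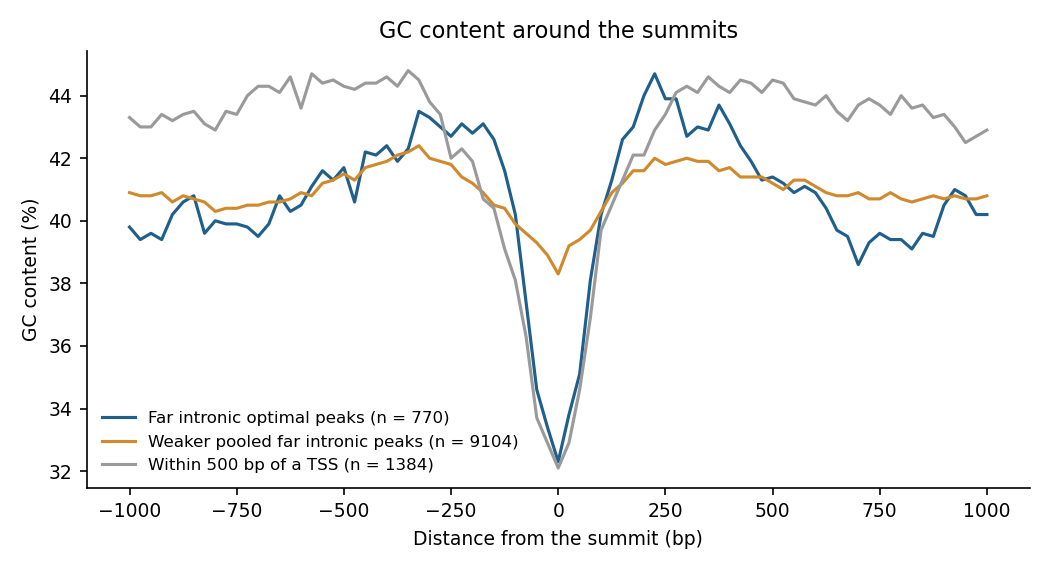
Mean GC content in steps of 25 bp around the summits of far intronic optimal peaks (blue), weaker far intronic peaks of the pooled list (orange) and optimal peaks within 500 bp of a TSS (grey). The far intronic optimal peaks and those near a TSS dip to about the same low at the summit, and the weaker peaks dip less.

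Of 28 consensus motifs searched on both strands, 5 had a higher share at the summit than in the flanks in every replicate, 12 a lower share, and 11 went both ways or were equal. The 5 were the AT repeat ATATATAT, the homeodomain core TAATTA, TTCNNNGAA (Stat92E), CTTTGA (Pangolin) and TGCATA (a part of the Su(Hw) site). In the optimal set itself CTTTGA went the other way, with 12.5% at far intronic summits, against 13.1% in the flanks and 13.1% over far intronic sequence. TAATTA was in 17.4% of far intronic summit windows, against 14.7% of flank windows and 14.2% of windows of the same length over all far intronic sequence. TGCATA had 16%, 14.7% and 14.5% in the same order, TTCNNNGAA 6.88%, 5.45% and 6.27%, and ATATATAT 4.55%, 2.66% and 3.71%. Among the 12 were GCCAT (Pho), with 25.7% at the summit, 36.0% in the flanks and 35.8% over far intronic sequence, and GCAGCAGC, with 0.649%, 3.83% and 2.62%. Base composition moves with these shares, and its part in them was not tested.

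GAGAG, the core that GAGA factor binds, was in 23.8% of far intronic summit windows, against 27.5% of flank windows and 21.5% of windows over far intronic sequence. In the replicates the difference of summit minus flanks was -2.88, -3.50 and -5.56 percentage points (mean -3.98 ± 1.40, SD, n = 3; two-sided exact sign-flip permutation test p = 0.25, the smallest possible). CAGGTA, the core of the site of the early embryonic factor Zelda, was in 4.68% of summit windows, 4.16% of flank windows and 3.90% of windows over far intronic sequence, and the difference from the flanks, 0.402 ± 0.839 percentage points (SD, n = 3 replicates), was within the spread. TATCGATA, the core of the DREF site, was in 0.130% of far intronic summit windows and 4.05% of those within 500 bp of a TSS.

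Letters chosen from these data are given as a description. TAAACA, which is also the core that forkhead proteins bind, was in 35.3% of far intronic summit windows, against 21.2% of flank windows, 22.5% at weaker pooled far intronic peaks and 19.2% over far intronic sequence. AAATAT was in 57.8% of far intronic summit windows, against 29.7% of flank windows and 34.1% over far intronic sequence. Both were also frequent at optimal peaks within 500 bp of a TSS, with 29.6% and 57.1%. Other words rich in A and T were in excess too, such as AATATT, with 34.8% against 22.6% at weaker pooled far intronic peaks. The summits are themselves rich in A and T, and the part of base composition in these shares was not tested. CACAGTGG was in 42 far intronic summit windows (5.45%), against 0.844% of flank windows, 1.53% at weaker pooled far intronic peaks and 0.799% over far intronic sequence. Its share was 4.01% at intronic peaks 500 to 2000 bp from a TSS and 3.90% within 500 bp of a TSS. In the replicates it was 4.93% ± 0.611 (SD, n = 3).

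The 3 words differed in where they lay. Per 1000 far intronic peaks and 100 bp of sequence, AAATAT had 608 matches within 25 bp of the summit, 252 at 100 to 200 bp and 194 at 300 to 500 bp, and TAAACA had 296, 143 and 107. CACAGTGG had 7.79 within 25 bp, 42.9 at 50 to 100 bp, 18.8 at 100 to 200 bp and 2.60 at 300 to 500 bp. The A- and T-rich words were thus densest at the summit itself and the 8-base word beside it. At optimal peaks within 500 bp of a TSS CACAGTGG had 11.6 matches within 25 bp and 34.0 at 50 to 100 bp, the same order.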

How the data were processed

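ChIP-seq peak lists of 3 biological replicates, of their pool and of the optimal set were analysed. Per the deposited notes, each list derives from a replicate's (or the pooled) alignment and 1 control alignment, not analysed here, and the optimal set from these lists by an irreproducible discovery rate (IDR) threshold. The sample descriptions speak of an input control, but each list has its own alignment beside a separate control, so the libraries were taken as immunoprecipitated. Per the labels the build is dm6 and chromatin was sheared to 200 to 800 bp. The sources used here do not give the aligner, the peak caller, their versions or the IDR threshold. The deposited signal (column 7) ranked peaks within a list; the authors' −log10 q-values broke ties, and the deposited summit offset, another column, gave the summit. The 3237 optimal peaks are the strongest of the pooled list, so membership follows pooled signal.

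Summits were placed on 18164 genes of Ensembl release 115 and RefSeq Release 6 sequence with Python 3.11.15, pandas 2.3.3, numpy 2.4.6 and matplotlib 3.10.9, after tests on planted positions and motifs. The members, 9 gene lists and 28 motifs were chosen with earlier results of these data known, and 3 further words after seeing the sequences. Named genes were the hosts of the 15 strongest members, the 10 hosts with most (ties by strongest signal), the 3 strongest in each list, the host of the longest intron and the 3 peaks on each side of the limit; CHES-1-like, zld, hth, mamo, Snoo, the hosts of the printed 8-base words and the long genes without peaks were added after seeing values. Alternatives were other distance limits, TSSs of protein-coding genes only, transposable elements kept, the stronger 1618 peaks, each replicate left out, other support rules, windows and intron definitions. The only tests were exact sign-flip permutation tests over replicates; regions and genes were not treated as replicates. The labels call the samples biological replicates but not how they were collected, so their spread may be partly technical. The sequence at 1 of the strongest summits is not reported here.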

Additional observations from a re-analysis of the deposited data

How the results depend on the processing

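Of 55 recomputed values, 25 stayed close to the reported one (counts within 1.5 times, other values within 1 SD of the replicates) and 30 moved. The rank difference was recomputed under 8 alternatives, and far intronic peaks ranked below the others in all 8. The directions of the GC and motif differences were not recomputed. The lowest rank difference, 235.3, came with the stronger 1618 optimal peaks, which also gave 300 far intronic peaks, 58 hosts with 2 or more, 94.3% supported in all 3 replicates and GAGAG in 24.7%. With a limit of 5000 bp there were 386 peaks, 85 such hosts, a median intron of 17039.5 bp and GAGAG in 25.9%. With 1000 bp the median intron was 9401.0 bp and GAGAG 23.4%, and with TSSs of protein-coding genes only GAGAG was 24.2%. Windows of 50 and 250 bp gave GAGAG in 10.4% and 56.4%. Support in all 3 replicates was 23.1% with the 1618 strongest peaks of each replicate and 87.3% with the 6474 strongest. The longest annotated intron had a median of 17836.5 bp. Leaving out 1 replicate at a time, and keeping only the peaks that both remaining replicates supported, gave 476 to 520 peaks and 104 to 114 hosts with 2 or more. Rank differences were 393.2 to 438.5, median introns 11256.5 to 12226.5 bp, and GAGAG was in 23.7% to 24.6%. The kept peaks were 61.8% to 67.5% of all 770, which is also the support in the other 2 replicates. The count of peaks moved by over 1.5 times without replicate 2 (476) and without replicate 3 (506), and that of hosts without replicate 1 (111) and without replicate 2 (104), since keeping only supported peaks leaves fewer by construction. Chosen after seeing the data, joining overlapping peaks left 165 hosts with 2 or more. No paired analysis was possible because there is 1 group. Read depth is unknown, so weak peaks cannot be told from thin sampling.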

Other observations

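CHES-1-like, which encodes a forkhead transcription factor, held 6 far intronic peaks in 7.45 kb of far intronic sequence, the shortest such stretch among the 18 hosts with 5 or more. All 6 were supported in every replicate, with pooled signals of 179.8 to 396.7, the replicates placed 6, 6 and 6 far intronic peaks in it, and an optimal peak near one of its TSSs had a signal of 620.3. In tara all 5 far intronic peaks were supported in every replicate, with pooled signals of 276.4 to 990.5. At the other end, the peak in zld, the gene of the early embryonic activator Zelda, had a pooled signal of 165.7 and ranks of 3375, 3590 and 3756, just past the strongest 3237 of every replicate.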
